A study of Homo sapiens with 2 samples.

Results

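The 7 genes described here are TXNIP, 4 of its relatives among the alpha-arrestins (ARRDC1, ARRDC2, ARRDC3 and ARRDC4), and MLXIP and MLX, which encode the MondoA factor and its partner. They were picked by name, because TXNIP and ARRDC4 are the classic targets of MondoA, and with their values in these data already known. All 7 were found by Entrez number among 16021 genes or gene models, and all 7 had an average of at least 1 FPKM in the 2 libraries, the filter used throughout. FPKM is a fragment count normalised for transcript length and sequencing depth, so levels can be compared between genes.

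HGC-27 is a human gastric cancer line. The cells received a lentivirus that carried either an shRNA against DDX5, an RNA helicase of the DEAD-box family, or a non-targeting shRNA, and were grown in serum-containing RPMI-1640. Puromycin was given from 48 h after transduction, and cells of both groups were harvested after 1 week of it. Each group is 1 library from 1 selected culture, so no difference below has a replicate check, a standard error or a p-value, and culture-to-culture variation is unknown. The number of distinct shRNA sequences used is not given in the sources used here.

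Alpha-arrestins are adaptor proteins with the arrestin fold. Their tails carry proline-rich motifs that recruit ubiquitin ligases of the NEDD4 family to membrane proteins, which are then taken into the cell. TXNIP also binds thioredoxin, and it lowers glucose uptake by promoting internalization of the glucose transporter GLUT1. MondoA and MLX form a dimer that responds to glucose 6-phosphate, enters the nucleus and binds a DNA element made of a pair of E-box-like motifs, the carbohydrate response element, through which it activates targets such as TXNIP.

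DDX5 itself stood at 50.78 FPKM in the DDX5 shRNA library and at 170.5 FPKM in the non-targeting library, a log2 ratio of -1.73. All log2 ratios below are of FPKM + 1, DDX5 shRNA over non-targeting shRNA, and "2-fold" refers to that scale. Of 11413 genes past the filter, 478 (4.19%) stood 2-fold or more above the non-targeting level in DDX5 shRNA cells and 258 (2.26%) 2-fold or more below it. Giving both columns an equal FPKM sum moved the median ratio of those genes by -0.11 and made the counts 379 and 379; values under that rescaling are given below as "at the same total". Of 5 epithelial markers checked against the label of gastric adenocarcinoma, 4 were analysed here. EPCAM was at 0.39 FPKM in DDX5 shRNA cells and 0.04 FPKM in non-targeting cells, CDH1 at 0.07 FPKM in DDX5 shRNA cells and 0.36 FPKM in non-targeting cells. The 4 markers summed to 1.93 FPKM in DDX5 shRNA cells and 5.74 FPKM in non-targeting cells. KRT8 made up most of both sums, at 1.31 FPKM in DDX5 shRNA cells and 5.24 FPKM in non-targeting cells. KRT18, like EPCAM, went the other way, at 0.16 FPKM in DDX5 shRNA cells and 0.1 FPKM in non-targeting cells. EPCAM, CDH1 and KRT18 were under 1 FPKM in both libraries, below the filter, so their directions are uncertain. Of the 4 mesenchymal markers, VIM was at 1270.59 FPKM in DDX5 shRNA cells and 1583.62 FPKM in non-targeting cells, and COL1A1 at 260.5 FPKM in DDX5 shRNA cells and 285.04 FPKM in non-targeting cells. FN1 and COL1A2 went the other way, FN1 with 5.99 FPKM in DDX5 shRNA cells and 4.76 FPKM in non-targeting cells, and COL1A2 with 6.02 FPKM in DDX5 shRNA cells and 2.52 FPKM in non-targeting cells. Whether these marker differences play a part in the results below was not tested.

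The promoters of TXNIP and ARRDC4 are shown first, because these are the members whose transcripts were at least 2-fold apart and the ones known as MondoA targets. The sequences are RefSeq's, on build GRCh38.p14, matched by Entrez number, and the deposited values rest on hg19. Each runs 5′ to 3′ on the gene's own strand over the 250 bases before the first listed start site. Capitals mark E-boxes (CACGTG), pairs of E-box-like motifs (CACGNG repeated after 5 further bases), CCAAT boxes (CCAAT) and the forkhead core (GTAAACA), each searched on both strands.
TXNIP, chr1:145996580-145996829, minus strand: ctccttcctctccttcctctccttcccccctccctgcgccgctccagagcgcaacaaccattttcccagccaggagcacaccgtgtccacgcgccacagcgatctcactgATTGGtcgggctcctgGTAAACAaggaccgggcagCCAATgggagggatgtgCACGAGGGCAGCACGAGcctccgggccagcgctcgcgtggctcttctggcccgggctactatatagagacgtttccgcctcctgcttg
ARRDC4, chr15:97960453-97960702, plus strand: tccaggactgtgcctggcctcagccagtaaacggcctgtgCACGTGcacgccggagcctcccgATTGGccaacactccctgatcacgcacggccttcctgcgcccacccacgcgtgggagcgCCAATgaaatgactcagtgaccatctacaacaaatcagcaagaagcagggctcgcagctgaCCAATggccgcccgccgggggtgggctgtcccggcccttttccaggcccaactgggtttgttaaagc

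The TXNIP window held 1 such pair, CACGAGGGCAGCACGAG, which begins 88 bases before the start site. CCAAT boxes lay 140 and 105 bases before the start, and a forkhead core lay between them at 124 bases. The paired element is rare: it occurred in 16 of 35116 start windows of the same length across the genome, or 0.0456%. Among windows of genes past the filter it occurred in 13 of 13685, or 0.0950%. RefSeq lists a second start site of TXNIP, and the window before that one held none of these motifs. The ARRDC4 window held a full E-box 210 bases before the start and 3 CCAAT boxes, but no pair with this spacing. E-boxes occurred in 6.34% of all windows, CCAAT boxes in 32.0% and the forkhead core in 2.98%. Among windows of genes past the filter these shares were 8.40%, 33.4% and 2.19%.

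Among the other members, MLX had an E-box 50 bases before its start site, and ARRDC3 a forkhead core 29 bases before its second listed start. ARRDC1, ARRDC2 and MLXIP had neither an E-box nor a forkhead core in any window searched. CCAAT boxes were found in at least 1 window of all 7 genes. The core of the composite element read by ATF4 (TGATGNAA) was in none of the members' windows. It was present in 3.14% of all windows and in 1.62% of windows of genes past the filter. A match is a string of letters and does not show that a factor is bound.

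TXNIP stood far above the other members in the DDX5 shRNA library. Its transcript was at 127.83 FPKM in DDX5 shRNA cells, against 14.33 FPKM in non-targeting cells, which is 8.92-fold on the deposited values and a log2 ratio of 3.07. That was rank 10 from the highest ratio among 11413 genes. In level, TXNIP was above 96.5% of all listed genes in the DDX5 shRNA library and above 69.6% in the non-targeting library. The ratio stayed between 2.78 and 3.15 under every pseudocount, filter and scaling tried. With 1 bulk library per group, more transcript per cell and more cells of a kind that expresses the gene cannot be told apart, here or for any gene below.

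ARRDC4, the other classic MondoA target, differed in the same direction and by less. It was at 15.86 FPKM in DDX5 shRNA cells and 6.75 FPKM in non-targeting cells, 2.35-fold, with a log2 ratio of 1.12 (0.83 with a pseudocount of 5 FPKM, below 2-fold). ARRDC4 ranked 358 from the highest ratio. ARRDC3, an adaptor that draws integrin beta 4 and other membrane proteins to NEDD4-family ligases, was at 7.2 FPKM in DDX5 shRNA cells and 3.88 FPKM in non-targeting cells. Its log2 ratio of 0.75 did not reach 2-fold.

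The remaining alpha-arrestins were at nearly the same level in both libraries. ARRDC2 was at 12.9 FPKM in DDX5 shRNA cells and 11.28 FPKM in non-targeting cells, a log2 ratio of 0.18. ARRDC1, which buds vesicles from the plasma membrane with the help of TSG101, was at 6.55 FPKM in DDX5 shRNA cells and 6.21 FPKM in non-targeting cells, a log2 ratio of 0.07 that became -0.03 at the same total. No spread between cultures was measured, so it is not known whether differences of this size recur.

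**Figure D1:**
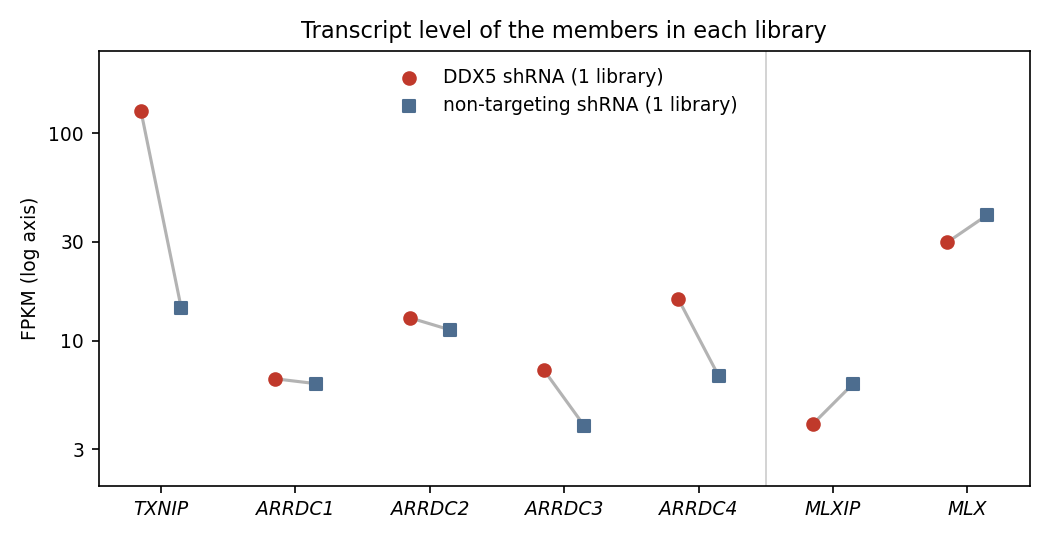
FPKM (log axis) of each member in the DDX5 shRNA library (circles) and the non-targeting library (squares), 1 library each, with alpha-arrestins left of the line and MondoA factors right of it. TXNIP has the steepest line, with 127.83 FPKM under DDX5 shRNA and 14.33 FPKM under non-targeting shRNA, and MLXIP and MLX slope the other way.

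The 2 factor genes were lower in DDX5 shRNA cells, and neither by 2-fold. MLXIP was at 3.96 FPKM in DDX5 shRNA cells and 6.2 FPKM in non-targeting cells, 1.57-fold lower with a log2 ratio of -0.54. MLX was at 29.77 FPKM in DDX5 shRNA cells and 40.42 FPKM in non-targeting cells, 1.36-fold lower with a log2 ratio of -0.43. Neither ratio was extreme: from the lowest, MLXIP ranked 1349 and MLX 1908 among 11413 genes. The ratios ranged from -0.63 to -0.32 for MLXIP and from -0.54 to -0.39 for MLX over the settings tried. Both libraries thus held more MLX than MLXIP transcript per length, 7.52 times as much in DDX5 shRNA cells and 6.52 times in non-targeting cells. TXNIP reached 32.3 times the MLXIP level in DDX5 shRNA cells and 2.31 times in non-targeting cells. MLXIPL, which encodes ChREBP, the relative of MondoA best known from liver, was at 0.65 FPKM in DDX5 shRNA cells and 0.31 FPKM in non-targeting cells, below the filter. The remaining alpha-arrestin, ARRDC5, was not analysed here.

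Set together, 2 of 7 members were higher by 2-fold or more in DDX5 shRNA cells and 0 of 7 lower by as much, where 4.19% and 2.26% of all genes past the filter were. Since the members were chosen with these values known, their count carries no weight of its own. Their median log2 ratio was 0.18, with a range from -0.54 to 3.07, beside 0.02 over all genes past the filter. The members therefore did not share a direction: 5 had a ratio above 0 (4 at the same total) and 2 below. Over all genes past the filter, 52.0% had a ratio above 0.

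**Figure D2:**
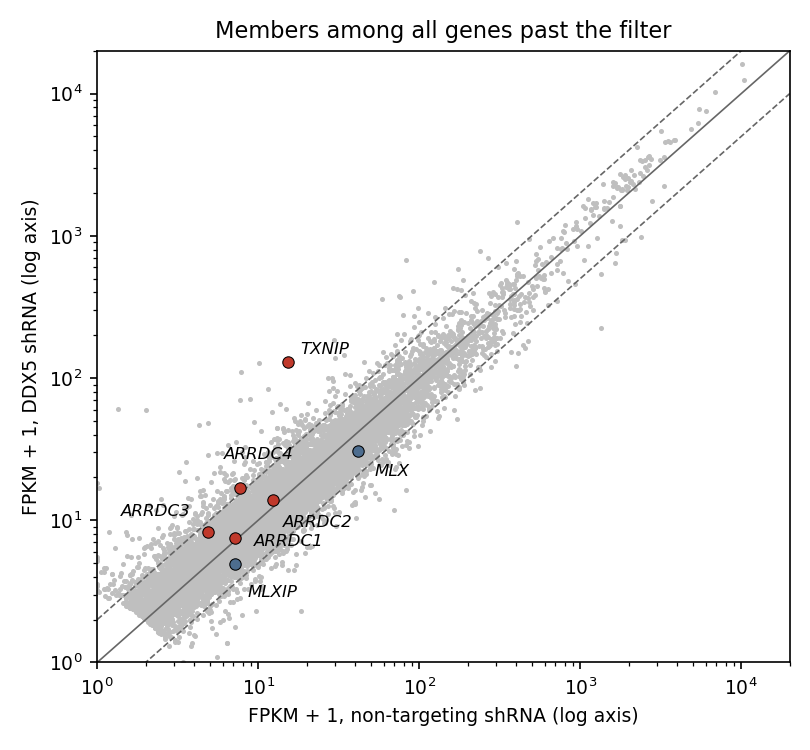
FPKM + 1 in the DDX5 shRNA library (vertical, log axis) against the non-targeting library (horizontal, log axis) for 11413 genes past the filter (grey), with alpha-arrestins in red and MondoA factors in blue. The solid line marks equal values and the dashed lines 2-fold; TXNIP and ARRDC4 lie above the upper dashed line.

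The makeup of the family differed between the libraries mostly through TXNIP. The 5 alpha-arrestins summed to 170.34 FPKM in DDX5 shRNA cells and 42.45 FPKM in non-targeting cells. TXNIP made up 75.0% of that sum in DDX5 shRNA cells and 33.8% in non-targeting cells. Without TXNIP the sums were 42.51 FPKM in DDX5 shRNA cells and 28.12 FPKM in non-targeting cells. In DDX5 shRNA cells the order of levels was TXNIP, ARRDC4, ARRDC2, ARRDC3 and ARRDC1, and in non-targeting cells it was TXNIP, ARRDC2, ARRDC4, ARRDC1 and ARRDC3. Several neighbours in these orders lay close together, such as ARRDC3 and ARRDC1 at 7.2 and 6.55 FPKM in DDX5 shRNA cells, and without replicates their order is not established.

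**Figure D3:**
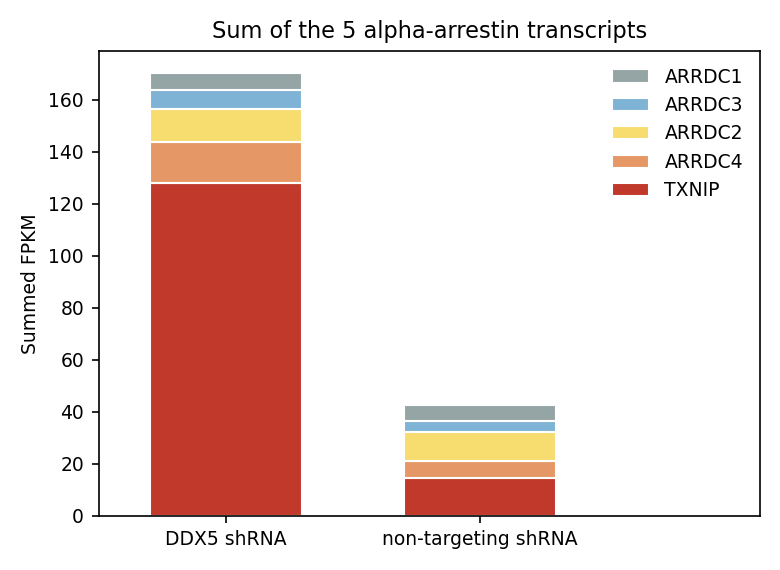
Summed FPKM of the 5 alpha-arrestins in the DDX5 shRNA library (left) and the non-targeting library (right), with each gene's part stacked. TXNIP fills 75.0% of the DDX5 shRNA bar and 33.8% of the non-targeting bar.

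The members' values rest on moderate numbers of fragments. Steps between low FPKM values of short genes with 1 transcript corresponded to about 1.45e+07 fragments in the DDX5 shRNA library and 1.41e+07 in the non-targeting library, as rough estimates. Fragments per member were estimated at that depth from the length of its longest coding transcript. TXNIP came to about 5238 fragments in DDX5 shRNA cells and 573 in non-targeting cells. ARRDC1 had the fewest by this estimate, about 141 in DDX5 shRNA cells and 130 in non-targeting cells. No 50-base window of the longest coding transcript of any member occurred in a coding transcript of another gene. ARRDC1 shared 5.84% of its windows with AL590627.2, a noncoding model that overlaps it. Whether strand was used in counting is not given in the sources used here, so reads of a member and those of an overlapping antisense gene cannot be told apart. This concerns ARRDC1 and ARRDC3, which have annotated antisense RNAs, ARRDC2, overlapped by an unclassified model, and MLX, which overlaps PSMC3IP on the opposite strand. PSMC3IP was at 16.07 FPKM in DDX5 shRNA cells and 15.84 FPKM in non-targeting cells.

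Genes that act with the members were then described as lists, each by its count past 2-fold and its median. Of all genes past the filter, 4.19% were higher and 2.26% lower by 2-fold or more. Among partners and competitors of MLX, dimers that bind E-boxes, 2 of 8 genes past the filter were higher by 2-fold or more in DDX5 shRNA cells and 0 lower by as much, with a median log2 ratio of 0.34. With a pseudocount of 5 FPKM, 0 of them reached 2-fold. MXI1, which encodes a repressor that pairs with MAX, was at 18.04 FPKM in DDX5 shRNA cells and 7.19 FPKM in non-targeting cells, a log2 ratio of 1.22 (0.92 with that pseudocount). MXD1, a repressor that can pair with MAX or MLX, lay exactly on the threshold, at 6.02 FPKM in DDX5 shRNA cells and 2.51 FPKM in non-targeting cells, and was short of it at the same total (0.91). MXD3, another repressor of this group, was at 3.96 FPKM in DDX5 shRNA cells and 8.38 FPKM in non-targeting cells, a log2 ratio of -0.92 (-1.02 at the same total). MYC, the growth-promoting partner of MAX, and MAX had log2 ratios of 0.71 and 0.29.

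Other known targets of MondoA or ChREBP lay on both sides. Of 11 past the filter, 6 had a log2 ratio above 0 and 5 below, with a median of 0.05 and a range from -0.59 to 5.49. Over all genes past the filter, 52.0% were above 0. By 2-fold or more, 1 of 11 was higher and 0 lower, where 4.19% and 2.26% of all genes were. The 1 was FGF21, a secreted metabolic hormone, at 59.26 FPKM in DDX5 shRNA cells and 0.34 FPKM in non-targeting cells. It passed the filter only through its DDX5 shRNA value. Its log2 ratio of 5.49 was 3.59 with a pseudocount of 5 FPKM and 7.08 with a pseudocount of 0.1 FPKM. KLF10, a repressor induced by glucose, was at 9.45 FPKM in DDX5 shRNA cells and 4.75 FPKM in non-targeting cells, a log2 ratio of 0.86. HK2, a hexokinase that makes the glucose 6-phosphate sensed by MondoA, was at 20.9 FPKM in DDX5 shRNA cells and 20.2 FPKM in non-targeting cells. The fatty acid synthesis genes FASN and ACLY were lower in DDX5 shRNA cells, with log2 ratios of -0.59 and -0.56.

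Transcripts of glucose uptake and of glucose 6-phosphate metabolism were within 2-fold. Most genes past the filter were too, with 4.19% higher and 2.26% lower by 2-fold or more. Among glucose transporters, 0 of 8 genes past the filter were 2-fold apart, and the median log2 ratio was 0.30. Of these 8, 6 had a ratio above 0 (also at the same total), beside 52.0% of all genes past the filter on the deposited values. SLC2A1, which encodes GLUT1, was at 23.48 FPKM in DDX5 shRNA cells and 19.9 FPKM in non-targeting cells. SLC2A3, SLC2A4, SLC2A8 and SLC2A11 had log2 ratios of 0.59, 0.50, 0.43 and 0.36. Among hexokinases and enzymes that make or use glucose 6-phosphate, 0 of 8 were 2-fold apart, with a median of -0.15. PGM2, a phosphopentomutase, had the lowest ratio, -0.76, while PGM1, which links glucose 6-phosphate to glycogen, had a ratio of 0.57. SLC37A4, the carrier of glucose 6-phosphate into the endoplasmic reticulum, and GPI, which converts it to fructose 6-phosphate, had ratios of -0.45 and -0.10.

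In the thioredoxin system, 1 of 18 genes was higher by 2-fold or more and 1 lower by as much (2 at the same total), with a median log2 ratio of 0.02. The shares over all genes past the filter were 4.19% higher and 2.26% lower. TXN, the cytosolic thioredoxin that TXNIP binds, was at 442.6 FPKM in DDX5 shRNA cells and 497.68 FPKM in non-targeting cells. TXNIP transcript thus stood closer to that of TXN in the DDX5 shRNA library. TXN2, its mitochondrial counterpart, was at 75.22 FPKM in DDX5 shRNA cells and 74.13 FPKM in non-targeting cells. RRM2, a ribonucleotide reductase subunit supplied with electrons by thioredoxin, was at 38.06 FPKM in DDX5 shRNA cells and 92.02 FPKM in non-targeting cells. MSRB2, a methionine sulfoxide reductase of mitochondria, was at 11.55 FPKM in DDX5 shRNA cells and 4.49 FPKM in non-targeting cells, a log2 ratio of 1.19 (0.80 with a pseudocount of 5 FPKM, below 2-fold). The mitochondrial peroxiredoxin PRDX3 and the reductase subunit RRM1 had log2 ratios of -0.95 and -0.84.

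The ligases and the trafficking machinery that alpha-arrestins recruit were within 2-fold throughout. So were most genes past the filter, of which 4.19% were higher and 2.26% lower by 2-fold or more. None of 9 NEDD4-family ligases and adaptors was 2-fold apart, and their median log2 ratio was 0.17. NEDD4 had the highest ratio, 0.79, at 8.49 FPKM in DDX5 shRNA cells and 4.49 FPKM in non-targeting cells. ITCH, the ligase known to ubiquitinate TXNIP, was at 14.55 FPKM in DDX5 shRNA cells and 12.83 FPKM in non-targeting cells. The adaptors NDFIP1 and NDFIP2 and the ligase SMURF1 had ratios of 0.43, 0.28 and 0.26. None of 14 genes of ESCRT sorting and vesicle budding was 2-fold apart either, with a median of 0.11. VPS28 and MVB12A, subunits of ESCRT-I, had ratios of 0.87 and 0.75, VPS37C of the same complex 0.39, and PDCD6IP, which encodes ALIX, -0.32. TSG101, the partner of ARRDC1, was at 45.09 FPKM in DDX5 shRNA cells and 41.12 FPKM in non-targeting cells.

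**Figure D4:**
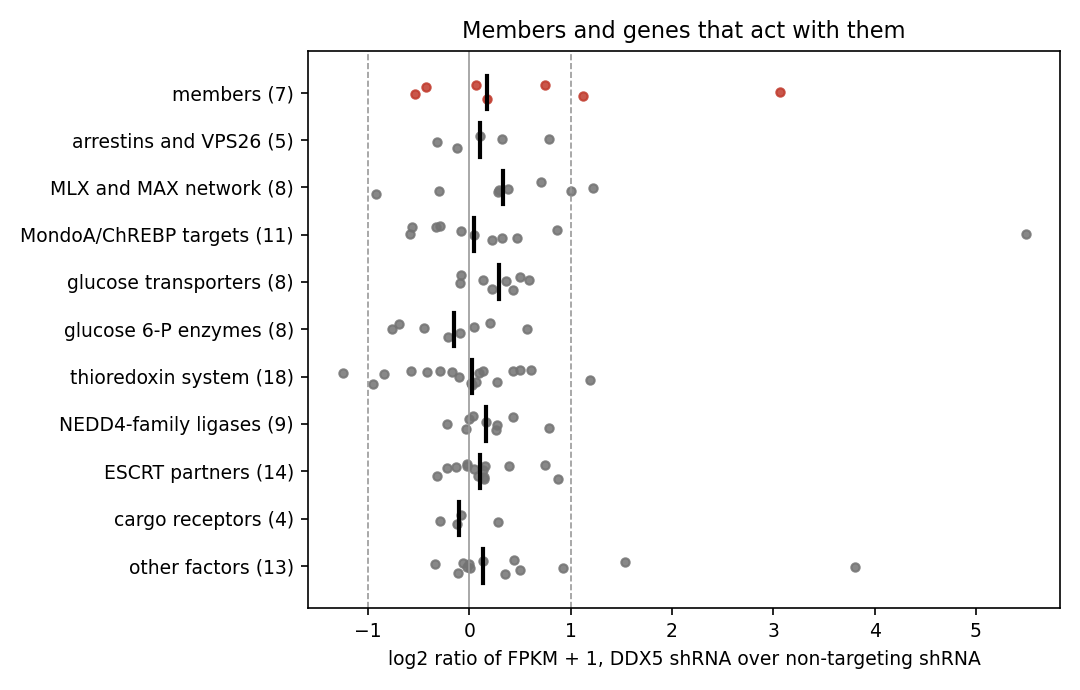
Log2 ratio of FPKM + 1, DDX5 shRNA over non-targeting shRNA (horizontal), for each gene past the filter in the members (red) and 10 lists of genes that act with them (grey), with the number of genes in brackets and the median as a black bar. Dashed lines mark 2-fold. TXNIP lies at 3.07, FGF21 at 5.49 and TSC22D3 at 3.81, and most other points lie between the dashed lines.

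Structural relatives outside the alpha-arrestins were also within 2-fold, with a median log2 ratio of 0.11 over 5 genes. Over all genes past the filter, only 4.19% were higher and 2.26% lower by 2-fold or more. The beta-arrestins ARRB1 and ARRB2, which desensitize receptors, had ratios of -0.32 and 0.32. The retromer subunits VPS26A and VPS26B had ratios of -0.13 and 0.11, and VPS26C, of the related retriever complex, 0.78, at 19.01 FPKM in DDX5 shRNA cells and 10.64 FPKM in non-targeting cells. Of 8 proteins listed as cargo of alpha-arrestins, 4 passed the filter and none was 2-fold apart. NOTCH1, INSR, IGF1R and the iron transporter SLC11A2 had ratios of -0.29, 0.29, -0.08 and -0.12. ITGB4, an integrin subunit and cargo of ARRDC3, was at 0.32 FPKM in DDX5 shRNA cells and 0.18 FPKM in non-targeting cells. Of 6 inflammasome genes, to which TXNIP has been linked through NLRP3, 2 were analysed here. NLRP3 was at 0.02 FPKM in DDX5 shRNA cells and listed at 0 in non-targeting cells, and NEK7, a kinase that binds it, was at 37.12 FPKM in DDX5 shRNA cells and 26.82 FPKM in non-targeting cells.

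Other factors known to act on TXNIP or ARRDC genes, and marker targets of those factors, gave 2 of 13 genes higher by 2-fold or more and 0 lower by as much, with a median log2 ratio of 0.14. The shares over all genes past the filter were 4.19% higher and 2.26% lower. TSC22D3, a target of glucocorticoid and FOXO signalling, was at 109.35 FPKM in DDX5 shRNA cells and 6.86 FPKM in non-targeting cells. PIK3IP1, which encodes an inhibitor of PI3K, was at 2.34 FPKM in DDX5 shRNA cells and 0.15 FPKM in non-targeting cells. It passed the filter only through its DDX5 shRNA value, and its log2 ratio of 1.54 was 0.51 with a pseudocount of 5 FPKM, which left 1 gene of the list past 2-fold. KLF9, a glucocorticoid-inducible factor, was at 11.08 FPKM in DDX5 shRNA cells and 5.37 FPKM in non-targeting cells, a log2 ratio of 0.92. FKBP5 and PER1, also glucocorticoid-inducible, had ratios of -0.11 and -0.33. FOXO1 was at 3.54 FPKM in DDX5 shRNA cells and 3.51 FPKM in non-targeting cells, and FOXO4 at 2.03 FPKM in DDX5 shRNA cells and 1.15 FPKM in non-targeting cells. FOXO3 was at 8.54 FPKM in DDX5 shRNA cells and 6.49 FPKM in non-targeting cells, a log2 ratio of 0.35. The AMPK subunit gene PRKAA2, whose kinase phosphorylates TXNIP protein, had a ratio of 0.14. Its level was low, at 1.28 FPKM in DDX5 shRNA cells and 1.07 FPKM in non-targeting cells. PRKAA1, another AMPK subunit gene, was at 25.07 FPKM in DDX5 shRNA cells and 25.2 FPKM in non-targeting cells, a ratio of -0.01.

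Likeness to TXNIP and to ARRDC4 was measured as the distance in log2(FPKM + 1) over the 2 libraries. The 3 genes nearest to TXNIP were TRIB3 (distance 0.59), at 126.35 FPKM in DDX5 shRNA cells and 9.18 FPKM in non-targeting cells, DDIT3 (0.76) and ARHGEF2 (0.89). TRIB3 and DDIT3 are targets of the stress factor ATF4. ARRDC4 had much closer neighbours, SDC3, SIDT2 and the unannotated model BGI_novel_G001701, at distances of 0.06, 0.07 and 0.07. A likeness over 2 libraries describes only a pair of values per gene.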

How the data were processed

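Transcript levels were measured by RNA sequencing in 1 library per group. The authors deposited FPKM per gene in 1 table, per the file headers, with 2 decimals. RSEM 1.2.8, Bowtie2, HISAT and hg19 are listed in the submitters' processing notes, without roles. The sources used here do not state annotation, strand setting or filters. Columns were assigned by sample title. Entrez numbers were named through RefSeq (GRCh38.p14), which matched 15289 of 16021 rows; 701 were BGI_novel models and 31 other numbers.

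Log2 ratios used a pseudocount of 1 FPKM, and genes averaging under 1 FPKM were left out of counts and medians. No test was run. The ratio and call steps were tested on simulated data without noise, which checks the arithmetic only and not the reliability of calls from 1 library per group. Start windows came from RefSeq, transcripts and overlaps from GENCODE v29. The rule for named genes took all members, DDX5, up to 4 genes per list with the largest absolute ratio, the gene nearest each median, all genes of lists with 5 or fewer, and the 3 genes nearest to TXNIP and to ARRDC4. TXN, ITGB4, NLRP3, FKBP5, PER1, FOXO1, FOXO3, PRKAA1, PSMC3IP, MYL5 and GFPT1 were named after their values were seen. A gene that the rule names is not reported here. Members and lists were chosen with earlier results of these data known. Alternatives were pseudocounts of 0.1 and 5 FPKM, no filter, a mean of 5 FPKM or more, the same total FPKM, and ratios centred on their median or their trimmed mean (30% off each tail). Depth is not stated in the table and was estimated from 107 short genes in the DDX5 shRNA library and 111 in the non-targeting library, of which 72.0% with DDX5 shRNA and 68.5% with non-targeting shRNA fell within 0.15 of a whole fragment at the best-fitting depth, after 100 bases were taken off each length. Software was matplotlib 3.10.9, scipy 1.17.1, pandas 2.3.3 and numpy 2.4.6 under Python 3.11.15.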

Additional observations from a re-analysis of the deposited data

How the results depend on the processing

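No paired analysis was possible because each group is 1 library. TXNIP stayed at least 2-fold higher in DDX5 shRNA cells under all 7 alternatives, and the member median stayed between 0.07 and 0.19. ARRDC4 stayed at least 2-fold higher except with a pseudocount of 5 FPKM, which left 1 member past 2-fold. That pseudocount gave 194 genes higher and 102 lower in all, and a pseudocount of 0.1 FPKM gave 743 and 390. The pseudocount of 5 FPKM also left 0 genes higher in the MLX and MAX network and in the thioredoxin system, and 1 among the other factors. In the MLX and MAX network, 1 gene was higher with a mean of 5 FPKM or more, at the same total and with either centring, and 1 was lower at the same total and with a pseudocount of 0.1 FPKM. With a mean of 5 FPKM or more, 1 of the other factors was higher. At the same total, 2 thioredoxin genes were lower. These changes follow from the settings' own construction, which weighs low values differently, rescales or shifts all genes alike, or removes weakly expressed genes. Variation between cultures was not measured. ARRDC1, the member with the fewest estimated fragments, rests on about 141 in DDX5 shRNA cells and 130 in non-targeting cells.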

Other observations

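The paired element of the TXNIP start window was looked up in all genes, as a description prompted by its place in TXNIP. Of 13 genes past the filter with such a pair within 250 bases before a listed start site, 3 were at least 2-fold higher in DDX5 shRNA cells (23.1%) and 0 at least 2-fold lower, where 3.99% and 2.14% of the 9279 genes with a listed window were. The 3 were TXNIP itself, MYL5, a myosin light chain gene, at 15.16 FPKM in DDX5 shRNA cells and 3.38 FPKM in non-targeting cells, and GFPT1, which encodes the entry enzyme of hexosamine synthesis, at 33.26 FPKM in DDX5 shRNA cells and 13.8 FPKM in non-targeting cells. Without TXNIP, 2 of 12 were at least 2-fold higher, and the median log2 ratio was 0.16. So few genes allow no statement about the element.

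Genes with other motifs in their windows were more numerous. Of the 9279 genes past the filter with a listed window, 3.99% were at least 2-fold higher in DDX5 shRNA cells and 2.14% at least 2-fold lower. Their median log2 ratio was 0.0171. Of 1080 genes with an E-box, 3.43% were at least 2-fold higher in DDX5 shRNA cells and 2.69% at least 2-fold lower, with a median log2 ratio of -0.0067. Of 3952 genes with a CCAAT box, 4.07% were higher and 2.99% lower, with a median of 0.0036. Of 278 genes with the forkhead core, 6.47% were higher and 2.16% lower, with a median of 0.08. Of 208 genes with the core of the ATF4 composite element, which no member's window held, 8.17% were higher and 1.92% lower, with a median of 0.12. Genes in these sets share factors, libraries and base composition and are not independent, and the differences between sets were not tested.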
